A study of Mus musculus with 8 samples.

Results

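The RNAs of ribosome biogenesis factors, the nucleolar proteins that process ribosomal RNA and assemble the ribosomal subunits, were followed through mouse oocyte maturation. A list of 60 such genes was drawn up by known function, and the 59 that were listed by symbol in all 8 deposited tables were kept, of 15962 genes listed in all 8. The remaining gene, Nop16, was listed only in the tables of injected oocytes. All 59 passed the filter on low values, none was at 0 in any library, and their means over the 8 libraries ran from 1.38 (Nol11) to 290.5 (Nop56) scaled TPM, a unit of transcript share corrected for gene length.

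The 8 libraries held 2 each from 4 groups of wild-type ICR (Crl:CD1) oocytes from young females: fully grown oocytes arrested at the germinal vesicle (GV) stage, uninjected oocytes at metaphase II (MII), and MII oocytes in which injected Myc-tagged cRNA overexpressed either wild-type BTG4 (Btg4wt) or a BTG4 mutant (Btg4tm). According to the paper, the GV and uninjected MII oocytes came from in vitro culture, and cRNA was injected into fully grown oocytes. Its methods describe gonadotropin treatment of the females before oocyte collection. In the mutant, alanines replace a threonine and the serines next to it, which are phosphorylated during maturation. All groups kept their own Btg4 gene, and the amount of endogenous BTG4 protein, which may differ between injected and uninjected oocytes, was not analysed here. Each library pooled 15 oocytes, and the labels do not say whether the libraries of a group came from separate females, so p-values measure the spread between these libraries, which may be technical. TPM are shares of a library and give no read depth. Values were scaled across libraries by the median of ratios, and reverse transcription began from an oligo(dT) primer, so both the number of molecules and their poly(A) tails enter a value.

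A ribosome is built in the nucleolus. RNA polymerase I makes a long precursor, small nucleolar ribonucleoproteins (snoRNPs) guide its chemical modification, and a large particle, the small subunit processome, folds and cuts the part that becomes the small subunit, while other factors assemble the large subunit. Transcription is silent in the fully grown oocyte, and during maturation stored maternal RNAs are degraded or have their poly(A) tails shortened or lengthened. BTG4 is an adaptor that brings the CCR4-NOT deadenylase to maternal mRNAs during maturation. Fewer oocytes in a pool and less RNA per oocyte cannot be told apart in such libraries.

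Replicate libraries correlated at 0.982 to 0.987 across genes (Pearson, log2 scale). The 12 oocyte markers searched were all present, with sums of 28729 and 26418 scaled TPM in GV, 18299 and 19653 in MII, 20168 and 19123 in Btg4wt and 28597 and 27318 in Btg4tm. Of 14 markers of cumulus and granulosa cells, the somatic cells around the oocyte, 5 were listed in all tables. Their sum was 35.4 and 35.1 in GV, 46.0 and 49.6 in MII, 46.7 and 47.7 in Btg4wt and 41.2 and 36.2 in Btg4tm, and Inha among them was at 0 in 1 MII library. Both sums moved with the groups, and their part in the results was not tested. Btg4 itself stood at 2650.0 and 2794 in GV, 5792 and 6002 in MII, 5178 and 5510.4 in Btg4wt, and 3725 and 4068 in Btg4tm, so the injected cRNA did not raise its measured level above that of uninjected MII oocytes. The mitochondrially encoded genes took 0.625% and 0.651% of TPM in GV, 2.71% and 2.60% in MII, 2.07% and 1.77% in Btg4wt, and 0.774% and 1.03% in Btg4tm, and the part of this shift in the results was not tested.

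From GV to MII the ribosome biogenesis RNAs split. Emg1, Nhp2 and Mrto4 fell to a few percent of their GV level, while Nol10, Utp20 and Dkc1 stood more than 2-fold higher relative to the median gene. In all, 13 of 59 (22%) were called lower in MII, against 24.0% of the 13952 genes tested. A call needed an adjusted p under 0.05 (limma, Benjamini-Hochberg over all genes tested) and a log2 fold change beyond 1 on the log2(scaled TPM + 1) scale. The 8 members called higher (13.6%) compared with 12.6% of all genes. Both shares lay near those of all genes. The median log2 fold change was 0.13 for the members and 0.00 for all genes tested. Both MII libraries lay above both GV libraries for 29 members (41.2% of all genes), below them for 24 (41.5% of all genes), and the groups overlapped for 6. The rises are relative to the median gene: when values were scaled to the mitochondrially encoded genes instead, the median of all genes moved to −1.74, that of the members to −1.86, and none of the 8 remained above GV.

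Between the injected groups, 8 members were called higher in Btg4tm than in Btg4wt (13.6%, against 18.2% of all genes tested) and 10 lower (16.9%, against 7.95%). The median log2 fold change was −0.26 for the members and 0.01 for all genes. Both Btg4tm libraries lay above both Btg4wt libraries for 18 members (37.6% of all genes) and below them for 30 (36.7% of all genes). All 8 members called higher in Btg4tm were among the 13 called lower in MII: Nhp2, Emg1, Utp4, Imp4, Noc4l, Rrp9, Dcaf13 and Mrto4. Among all genes tested, 92.5% of those called higher in Btg4tm were called lower in MII. The other 5 of the 13, Nop2, Tbl3, Ddx49, Nob1 and Bop1, were not called. Of the 10 called lower in Btg4tm, Heatr1, Utp20, Nol6, Nol10 and Ncl were also among those called higher in MII, and Utp6, Bms1, Rrp12, Tsr1 and Pes1 were not. This 5 of 10 compared with 41.9% of all genes called lower in Btg4tm. With mitochondrial scaling, which moved the median of all genes to 0.88 here, 24 members were called higher and 1, Nol6, lower.

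**Figure D1:**
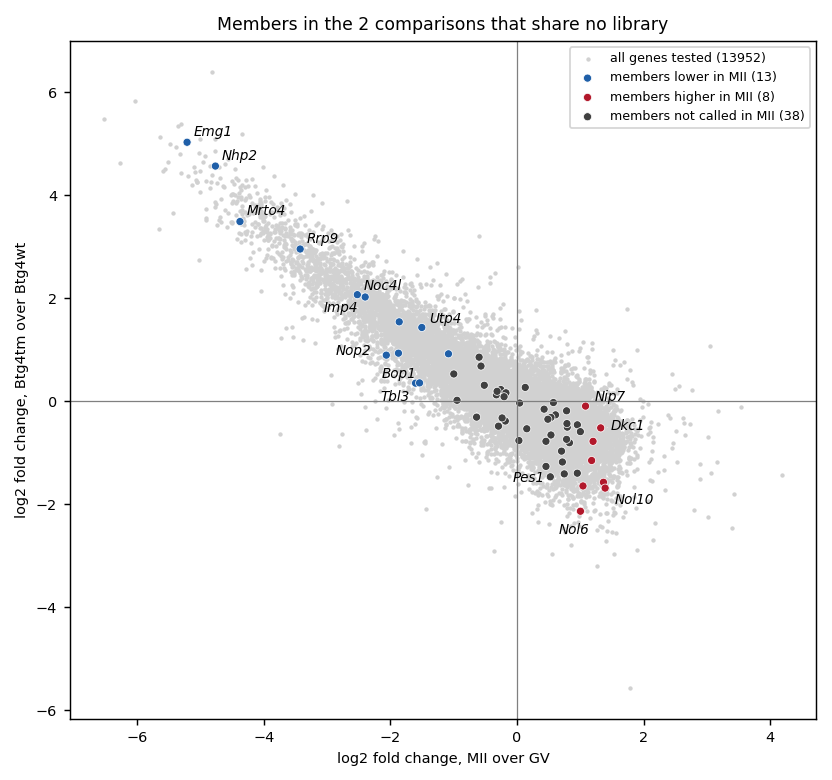
Log2 fold change in MII over GV (x axis) against Btg4tm over Btg4wt (y axis), each on the log2(scaled TPM + 1) scale. Grey dots are the 13952 genes tested and coloured dots the 59 members, blue for the 13 called lower in MII, red for the 8 called higher and dark grey for the other 38. The lower members run from Bop1 and Tbl3, near 0 on the y axis, to Emg1 at the upper left, and the higher ones lie below 0 on the y axis. The rises and falls are relative to the median gene, and with mitochondrial scaling no member was called higher in MII.

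The size of the difference in Btg4tm varied among the 13 RNAs that were lower in MII. The difference of Btg4tm from Btg4wt, as a share of the difference of GV from MII in log2 units, was 82.9% at the median and ran from 22% (Tbl3) to 96.5% (Emg1). Both Btg4tm libraries stood above both Btg4wt libraries for 12 of the 13, the exception being Bop1, and for 93.1% of all genes called lower in MII. All 8 RNAs called higher in MII had both Btg4tm libraries below both Btg4wt libraries, as did 85.0% of all genes called higher in MII. For these 8 the share of the difference ran from 8.6% (Nip7) to 213% (Nol6), a value over 100% meaning a difference larger than that between GV and MII. GV and MII came from one set of tables and the injected groups from another, with no library in common. The members nearest the fold threshold were Ltv1 at −0.9995, Nmd3 at 0.9996, Nop56 and Utp6 at 0.95 and Ddx47 at −0.95, which were not called, and Nol6 at 1.0008, Heatr1 at 1.04, Nip7 at 1.08 and Nob1 at −1.08, which were.

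Annotated 3′ ends are shown for members that moved in opposite directions, because the cytoplasmic polyadenylation element (CPE) that lengthens poly(A) tails during maturation lies there. The letters TTTTAT or TTTTAAT were searched on the transcript strand in the last 100 bases of 1 annotated transcript per gene (GENCODE M21, GRCm38) with a 3′ UTR of at least 30 bases. In the 30-base windows, capitals mark these letters or a polyadenylation signal (AATAAA or ATTAAA, searched in the last 40 bases), which may overlap. The first 5 are the members called higher in MII that held the CPE letters, and the others are the 5 with the largest falls that held either kind of motif.
Dkc1: tgagagaatatTTTTATTAAAagtctgagg
Heatr1: ctaaggagtaaaccggatggtatTTTTATa
Mphosph10: tcttagtttgtttcctgttgTTTTAATAAA
Utp20: atacttgtatTTTTAATTAAAatgTTTTAT
Nol10: atTTTTATatcaagggtataaattAATAAA
Emg1: ttttcctataaagagTTTTATttcgttttt
Mrto4: tgtttctataaagAATAAAattgtgtccgc
Rrp9: tgtcctcttttgtATTAAAgcctcctattt
Noc4l: cttgagtgctgggATTAAAggtgtgcacca
Imp4: ttgttcactgctaAATAAAgtcccagaaaa

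These windows lie at chrX:75109737-75109766 on the plus strand for Dkc1, chr13:12438864-12438893 on the plus strand for Heatr1, chr7:64376551-64376580 on the minus strand for Mphosph10, chr10:88746613-88746642 on the minus strand for Utp20 and chr12:17430050-17430079 on the plus strand for Nol10. The windows of the fallen RNAs lie at chr6:124704381-124704410 on the minus strand for Emg1, chr4:139347467-139347496 on the minus strand for Mrto4, chr9:106485384-106485413 on the plus strand for Rrp9, chr5:110648421-110648450 on the minus strand for Noc4l and chr1:34449324-34449353 on the plus strand for Imp4. In Dkc1, Mphosph10 and Utp20 the CPE letters overlap the polyadenylation signal. Utp20 held 3 matches in its last 100 bases and Mphosph10 held 2. Of the fallen RNAs shown, Emg1 held the CPE letters, and Nhp2, which is not shown, held neither kind of motif.

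Over the list, the CPE letters were found in 5 of 8 members called higher in MII (62.5%), in 1 of 13 called lower (7.69%) and in 8 of the 37 others with a long enough UTR (21.6%). Nip7, Nol6 and Ncl were called higher and had no match. Among all genes tested the letters were found in 31.9% of those called higher, 10.17% of those called lower and 19.8% overall. A match in an annotated end is a description of letters, and the ends used in these oocytes were not measured here. Heatr1 and Emg1 have other annotated transcripts that end further on.

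The H/ACA snoRNP, which turns uridines of rRNA into pseudouridines, showed the split within 1 particle. Nhp2, a core protein that contacts the guide RNA (chr11:51619735-51623714, plus strand), measured 152 and 174 in GV, 3.54 and 6.99 in MII, 5.08 and 4.64 in Btg4wt and 138 and 138 in Btg4tm (scaled TPM). Both MII and both Btg4wt libraries were low, and both Btg4tm libraries were near GV. Its log2 fold change was −4.76 ± 0.24 (SE, adjusted p = 1.8e-06) in MII over GV and 4.57 ± 0.24 (SE, adjusted p = 3.6e-06) in Btg4tm over Btg4wt. Dkc1, the pseudouridine synthase itself (chrX:75095854-75109777, plus strand), measured 97.1 and 91.6 in GV, 242 and 232 in MII, 224 and 214 in Btg4wt and 169.7 and 138 in Btg4tm. The order was opposite, with both MII libraries above both GV libraries relative to the median gene. Dkc1 differed by 1.32 ± 0.12 (SE, adjusted p = 3.1e-05) in MII over GV and by −0.52 ± 0.12 (SE, adjusted p = 0.0069) in Btg4tm over Btg4wt, the latter under the fold threshold. Nop10, the smallest core protein, measured 106 and 109.5 in GV, 86.6 and 93.8 in MII, 90.9 and 118 in Btg4wt and 100.4 and 148 in Btg4tm, with overlapping injected groups and a log2 fold change of −0.26 ± 0.19 (SE, adjusted p = 0.27) in MII over GV, and Gar1, the other core protein, was not called in either comparison. The level of Nhp2 per unit of Dkc1, both per length, was therefore 1.57 and 1.90 in GV, 0.0147 and 0.0301 in MII, 0.0226 and 0.0217 in Btg4wt and 0.811 and 1.004 in Btg4tm, a ratio that no scaling of libraries changes.

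**Figure D2:**
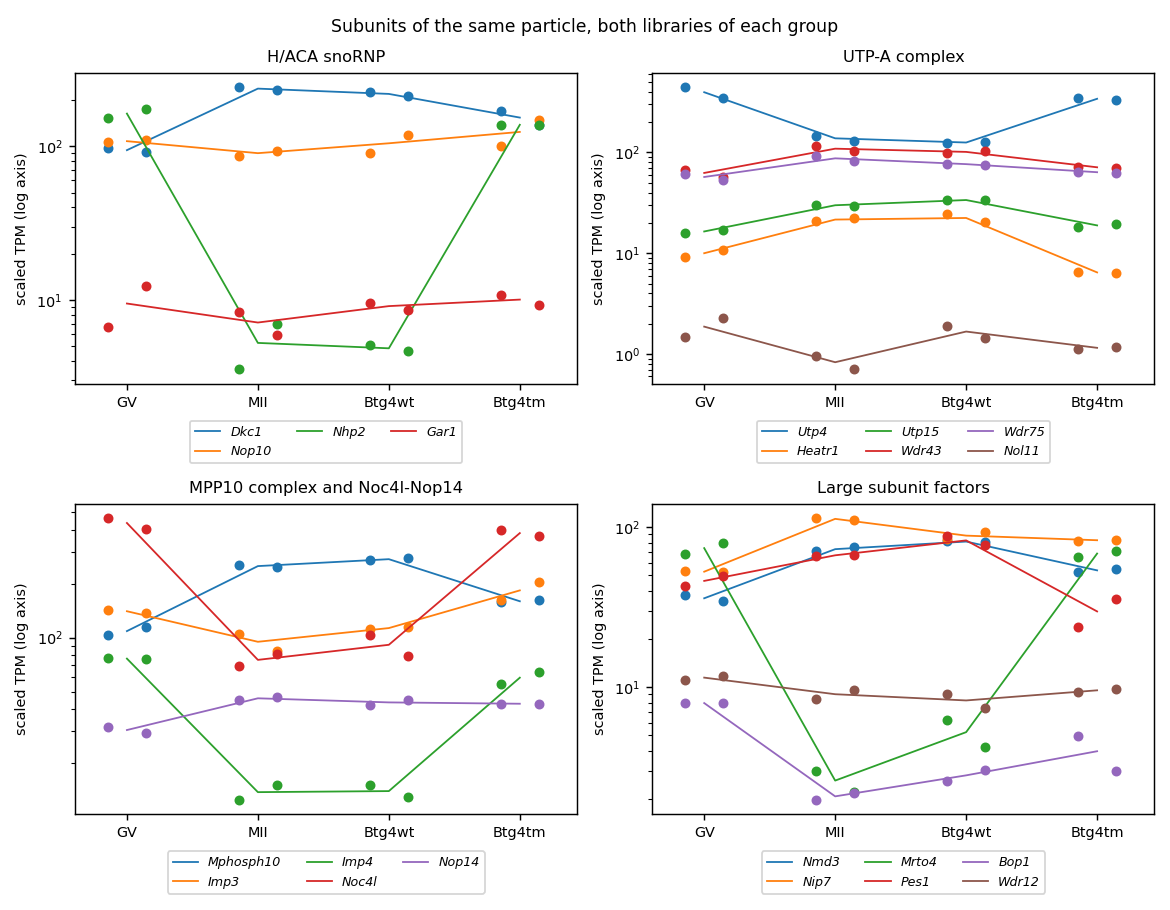
Scaled TPM (log axis) of subunits of the same particle in each library (points, 2 per group) with lines joining the group means. Nhp2, Utp4, Imp4, Noc4l and Mrto4 dip in MII and Btg4wt and return in Btg4tm. Relative to the median gene, Dkc1, Heatr1 and Mphosph10 peak in MII and Btg4wt. Their rise from GV to MII turned into a fall with mitochondrial scaling.

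The C/D snoRNP proteins, which direct 2′-O-methylation of rRNA, had no member past both thresholds. Nop56, a scaffold with the highest mean of the list over all 8 libraries, though below Noc4l and Utp4 in GV and Btg4tm and below Emg1 in GV, measured 178 and 187 in GV, 357 and 349.9 in MII, 377 and 348 in Btg4wt and 266 and 261 in Btg4tm. Both MII libraries were above both GV libraries, by 0.95 ± 0.09 (SE, adjusted p = 4.2e-05) on the log2 scale. Nop58, its partner, measured 29.99 and 29.5 in GV, 54.0 and 49.7 in MII, 46.7 and 45.8 in Btg4wt and 42.7 and 38.6 in Btg4tm and differed by 0.78 ± 0.11 (SE, adjusted p = 4.5e-04). Fbl, the methyltransferase fibrillarin, measured only 3.93 and 4.24 in GV, 5.07 and 3.51 in MII, 4.84 and 4.96 in Btg4wt and 3.34 and 6.66 in Btg4tm, with overlapping groups. Stretches of 50 bases shared with other annotated genes covered 82.5% of the Fbl transcript and 39.2% of that of Nop56, and reads from shared stretches are lost under a mapping-quality minimum, so both levels are uncertain.

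The 3 base methyltransferases each lay lower in both MII libraries than in both GV libraries, as did 41.5% of all genes tested. Emg1, which methylates a pseudouridine of the small subunit rRNA (chr6:124704085-124712178, minus strand), measured 249.7 and 219 in GV, 5.52 and 5.15 in MII, 4.49 and 4.03 in Btg4wt and 162 and 179.6 in Btg4tm. Only 2.28% of the GV mean was left in MII, and Btg4tm stood at 73.0% of it. The log2 fold change was −5.21 ± 0.13 (SE, adjusted p = 2.2e-07) in MII over GV, the largest fall of the list, and 5.03 ± 0.13 (SE, adjusted p = 6.1e-07) in Btg4tm over Btg4wt. Nop2, a cytosine methyltransferase of the large subunit rRNA, was scarce, at 4.65 and 5.38 in GV, 0.759 and 0.170 in MII, 0.59996 and 0.178 in Btg4wt and 2.17 and 1.06 in Btg4tm. Its fall of −2.07 ± 0.31 (SE, adjusted p = 5.4e-04) was called and its difference of 0.90 ± 0.31 (SE, adjusted p = 0.041) in Btg4tm was under the fold threshold. Rrp8, an adenine methyltransferase, measured 29.2 and 30.8 in GV, 20.6 and 18.4 in MII, 15.8 and 16.2 in Btg4wt and 34.1 and 26.0 in Btg4tm. It differed by −0.60 ± 0.16 (SE, adjusted p = 0.01) in MII and by 0.86 ± 0.16 (SE, adjusted p = 0.0023) in Btg4tm, both under the fold threshold, and without Btg4tm replicate 2 the value for Nop2 was 1.21 and that for Rrp8 1.05, both past it.

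The UTP-A complex, the first to bind the nascent precursor, had 6 members. In MII 1 was called lower and 1 higher (16.7% each), against 24.0% and 12.6% of all genes. Utp4, also known as cirhin (chr8:106893636-106923088, plus strand), measured 443 and 349 in GV, 145 and 131 in MII, 124 and 127 in Btg4wt and 349 and 333 in Btg4tm. It differed by −1.505 ± 0.13 (SE, adjusted p = 2.3e-05) in MII over GV and by 1.43 ± 0.13 (SE, adjusted p = 4.8e-05) in Btg4tm over Btg4wt. Heatr1, a large scaffold (chr13:12395027-12440289, plus strand), measured 9.19 and 10.8 in GV, 20.8 and 22.4 in MII, 24.5 and 20.2 in Btg4wt and 6.47 and 6.44 in Btg4tm. It was highest in MII and Btg4wt and lowest in Btg4tm, which lay below GV. Its rise relative to the median gene was 1.04 ± 0.16 (SE, adjusted p = 6.3e-04) and its difference in Btg4tm −1.64 ± 0.16 (SE, adjusted p = 8.2e-05). The rise fell under the fold threshold without GV replicate 1 (0.93) and without MII replicate 2 (0.99). Wdr75, the least moved in MII, measured 61.1 and 53.2 in GV, 92.6 and 82.3 in MII, 77.6 and 75.6 in Btg4wt and 64.1 and 63.2 in Btg4tm, and Utp15, Wdr43 and Nol11 differed by 0.83, 0.79 and −0.64 in MII.

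The UTP-B complex, which joins next, had 6 members. In MII 1 (16.7%) was called lower and 0 higher, against 24.0% and 12.6% of all genes. Tbl3 measured 17.4 and 16.7 in GV, 4.20 and 5.80 in MII, 9.55 and 8.10 in Btg4wt and 13.4 and 9.87 in Btg4tm and was called lower in MII, at −1.60 ± 0.21 (SE, adjusted p = 2.4e-04). It was not called in Btg4tm (0.35 ± 0.21 (SE, adjusted p = 0.2)), and both Btg4wt libraries lay above both MII libraries. Exons of Noxo1 overlap 37.3% of the exons of Tbl3, taken over all its annotated transcripts. Counting ignored strand, so reads on exons of both genes may have gone uncounted, and the Tbl3 level is uncertain. Utp6 measured 10.7 and 11.7 in GV, 24.2 and 21.003 in MII, 24.5 and 27.5 in Btg4wt and 7.26 and 11.7 in Btg4tm. It was not called in MII (0.95 ± 0.21 (SE, adjusted p = 0.0046)) and was lower in Btg4tm, at −1.40 ± 0.21 (SE, adjusted p = 8.5e-04). Without GV replicate 2 the MII value was 1.01 and without MII replicate 2 it was 1.05, both past the fold threshold. Utp18 measured 89.6 and 81.1 in GV, 93.4 and 93.1 in MII, 104 and 106 in Btg4wt and 139 and 116 in Btg4tm, with 0.13 ± 0.12 (SE, adjusted p = 0.36) in MII, while Pwp2, Wdr3 and Wdr36 lay between −0.29 and −0.19.

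**Figure D3:**
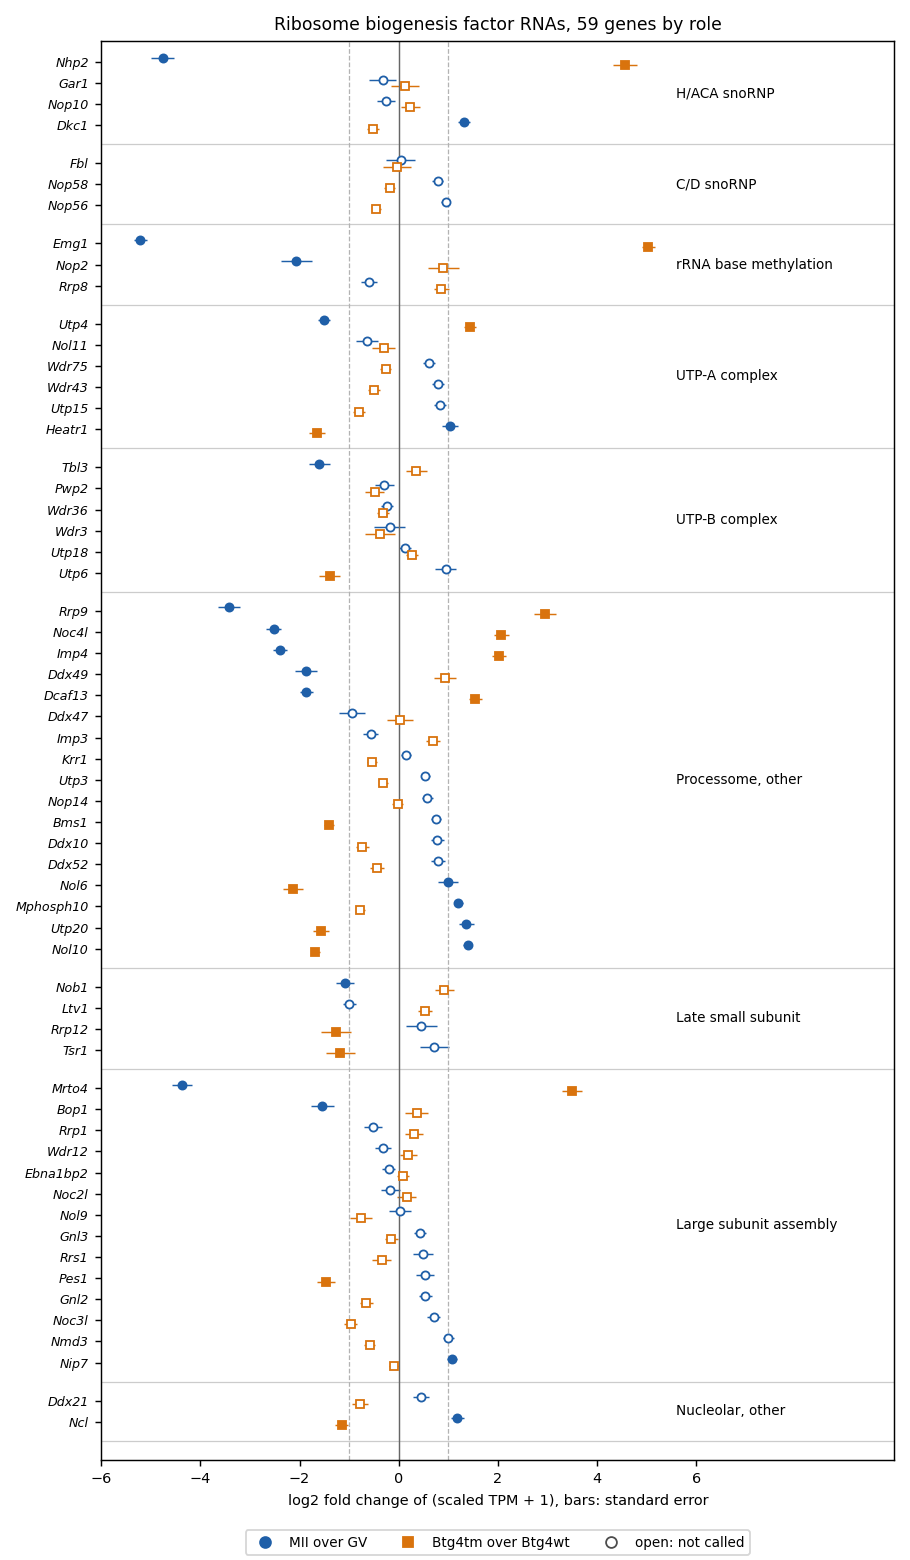
Log2 fold change with its standard error for each of the 59 members, grouped by role, in MII over GV (blue circles) and Btg4tm over Btg4wt (orange squares). Filled symbols passed both thresholds, open ones did not, and dashed lines mark a log2 fold change of 1 in either direction. Every role with at least 4 members holds RNAs on both sides of 0 in each comparison, on a scale relative to the median gene. The rises in MII over GV turned into falls with mitochondrial scaling.

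Among the 17 other proteins of the small subunit processome, 5 (29.4%) were called lower and 4 (23.5%) higher in MII, against 24.0% and 12.6% of all genes. Rrp9, the protein specific to the U3 snoRNP, measured 21.2 and 27.4 in GV, 0.974 and 1.77 in MII, 1.84 and 1.60 in Btg4wt and 19.6 and 20.6 in Btg4tm (chr9:106475963-106485424, plus strand). It fell by 3.43 ± 0.22 (SE, adjusted p = 6.3e-06) on the log2 scale and was higher in Btg4tm, at 2.96 ± 0.22 (SE, adjusted p = 2.1e-05). Noc4l measured 468 and 406 in GV, 69.6 and 80.8 in MII, 104 and 79.0 in Btg4wt and 397 and 370.4 in Btg4tm (chr5:110648418-110653417, minus strand), and differed by −2.52 ± 0.15 (SE, adjusted p = 4.0e-06) and 2.07 ± 0.15 (SE, adjusted p = 1.8e-05). Its partner Nop14 was not called, at 0.57 and −0.02, and the Noc4l to Nop14 ratio was 14.8 and 13.8 in GV, 1.55 and 1.73 in MII and 9.28 and 8.65 in Btg4tm.

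Imp3, Imp4 and Mphosph10 bind one another within the processome. Imp4 fell from 76.4 ± 0.722 (SD, n = 2) in GV to 13.7 ± 1.80 in MII, and stood at 13.9 in Btg4wt and 59.8 in Btg4tm. Mphosph10 measured 103 and 114 in GV, 255 and 247 in MII, 272 and 277 in Btg4wt and 157 and 162 in Btg4tm. It differed by 1.20 ± 0.09 (SE, adjusted p = 1.6e-05) in MII, relative to the median gene, and by −0.78 ± 0.09 (SE, adjusted p = 2.6e-04) in Btg4tm. Imp3 lay between the others, at −0.57 and 0.68. The Imp4 to Mphosph10 ratio was 0.746 and 0.663 in GV, 0.0489 and 0.0607 in MII, 0.0551 and 0.0465 in Btg4wt and 0.350 and 0.398 in Btg4tm. Dcaf13 and the helicase Ddx49 were also called lower in MII, at −1.86 and −1.87, and stood at 1.54 and 0.93 in Btg4tm, the second not called. Exons of Homer3 overlap 29.8% of the exons of Ddx49, taken over all its annotated transcripts.

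The rises relative to the median gene were of smaller size. Nol10 measured 73.4 and 80.4 in GV, 202 and 204 in MII, 224 and 227 in Btg4wt and 68.0 and 70.9 in Btg4tm (chr12:17348458-17430095, plus strand). Its Btg4tm libraries lay just below GV, and it differed by 1.39 ± 0.10 (SE, adjusted p = 8.1e-06) in MII and −1.68 ± 0.10 (SE, adjusted p = 5.4e-06) in Btg4tm. Utp20, a scaffold of the pre-ribosome, measured 8.43 and 10.8 in GV, 25.6 and 26.7 in MII, 28.2 and 26.5 in Btg4wt and 8.95 and 8.15 in Btg4tm, with 1.36 ± 0.16 (SE, adjusted p = 1.2e-04) and −1.57 ± 0.16 (SE, adjusted p = 9.1e-05). Nol6 measured 6.09 and 8.21 in GV, 15.8 and 14.6 in MII, 15.5 and 20.2 in Btg4wt and 3.11 and 3.42 in Btg4tm. It had the largest decrease of the list in Btg4tm, −2.13 ± 0.20 (SE, adjusted p = 6.9e-05), and the Btg4tm libraries lay below GV. Its MII value, 1.001 ± 0.20 (SE, adjusted p = 0.0027), fell under the fold threshold without GV replicate 1 (0.81) and without MII replicate 1 (0.95).

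Bms1, a GTPase, measured 127 and 132 in GV, 227 and 209 in MII, 245 and 219.6 in Btg4wt and 89.3 and 84.1 in Btg4tm. It was not called in MII (0.75 ± 0.10 (SE, adjusted p = 3.3e-04)) and was lower in Btg4tm, at −1.41 ± 0.10 (SE, adjusted p = 1.8e-05), with both Btg4tm libraries below both GV libraries. Krr1 measured 68.1 and 66.3 in GV, 77.8 and 71.9 in MII, 78.8 and 79.0 in Btg4wt and 52.7 and 55.7 in Btg4tm and differed least of this group in MII, by 0.15 ± 0.10 (SE, adjusted p = 0.22). The remaining members, Utp3, Ddx10, Ddx47 and Ddx52, were not called in either comparison and ran from −0.95 to 0.79 in MII.

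The late small subunit factors act up to the export and final cut of the pre-rRNA. Nob1, the endonuclease that makes that cut, measured 16.4 and 13.4 in GV, 6.38 and 6.58 in MII, 4.65 and 6.24 in Btg4wt and 11.7 and 10.6 in Btg4tm. It was called lower in MII (−1.08 ± 0.19 (SE, adjusted p = 0.0013)) and not in Btg4tm (0.92 ± 0.19 (SE, adjusted p = 0.0041)). Without GV replicate 1 its MII value was −0.95, under the fold threshold, and without Btg4wt replicate 2 its Btg4tm value was 1.101, past it. Ltv1 measured 94.6 and 107 in GV, 53.9 and 46.0 in MII, 65.2 and 57.2 in Btg4wt and 94.5 and 83.3 in Btg4tm and stopped short of the threshold at −0.999 ± 0.13 (SE, adjusted p = 2.8e-04), which it passed without GV replicate 1 (−1.09) or MII replicate 1 (−1.11). Rrp12 measured 4.29 and 5.37 in GV, 10.3 and 4.63 in MII, 9.20 and 9.05 in Btg4wt and 3.09 and 3.35 in Btg4tm and Tsr1 1.95 and 2.11 in GV, 3.17 and 4.91 in MII, 3.94 and 4.35 in Btg4wt and 1.92 and 0.766 in Btg4tm. Both were lower in Btg4tm, at −1.26 ± 0.31 (SE, adjusted p = 0.0092) and −1.18 ± 0.29 (SE, adjusted p = 0.0097), and neither was called in MII. Tsr1 lost its call without Btg4tm replicate 2 (−0.82), and exons of Srr overlap 32.3% of its exons, taken over all its annotated transcripts.

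Of the 14 large subunit factors, 2 (14.3%) were called lower in MII and 1 (7.14%) higher, against 24.0% and 12.6% of all genes. Mrto4, a placeholder for the stalk protein of the large subunit (chr4:139347435-139352576, minus strand), measured 67.9 and 79.7 in GV, 2.99 and 2.23 in MII, 6.26 and 4.21 in Btg4wt and 65.3 and 71.2 in Btg4tm. It differed by −4.38 ± 0.20 (SE, adjusted p = 1.2e-06) in MII and 3.49 ± 0.20 (SE, adjusted p = 5.6e-06) in Btg4tm. Stretches shared with other annotated genes cover 68.7% of its transcript, so its level is uncertain. Nip7 measured 52.8 and 52.5 in GV, 114 and 110.5 in MII, 84.1 and 92.6 in Btg4wt and 82.3 and 83.0 in Btg4tm. It was higher in MII relative to the median gene, by 1.08 ± 0.10 (SE, adjusted p = 3.6e-05), with no call in Btg4tm (−0.09 ± 0.10 (SE, adjusted p = 0.47)). The PeBoW complex, made of Pes1, Bop1 and Wdr12, also split. Bop1 measured 7.98 and 7.93 in GV, 1.98 and 2.18 in MII, 2.58 and 3.05 in Btg4wt and 4.98 and 2.98 in Btg4tm and was called lower in MII (−1.54 ± 0.24 (SE, adjusted p = 5.9e-04)), with overlapping injected groups. Pes1 measured 42.6 and 49.5 in GV, 66.0 and 67.2 in MII, 88.1 and 76.8 in Btg4wt and 23.9 and 35.5 in Btg4tm. It was not called in MII (0.53 ± 0.18 (SE, adjusted p = 0.035)) and was lower in Btg4tm, at −1.47 ± 0.18 (SE, adjusted p = 3.0e-04), while Wdr12 was not called at −0.32 and 0.19. Shared stretches cover 41.7% of the Pes1 transcript.

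Nol9, a polynucleotide kinase, measured 11.1 and 13.1 in GV, 11.1 and 13.6 in MII, 15.5 and 12.9 in Btg4wt and 9.73 and 6.43 in Btg4tm and differed least of the large subunit factors in MII (0.03 ± 0.22 (SE, adjusted p = 0.92)). Its Btg4tm value of −0.76 ± 0.22 (SE, adjusted p = 0.02) passed the fold threshold without Btg4tm replicate 1 (−1.03). Noc2l, Noc3l, Ebna1bp2, Rrs1, Gnl2, Gnl3, Nmd3 and Rrp1 were not called in either comparison. They ran from −0.52 (Rrp1) to 0.9996 (Nmd3, the export adaptor) in MII and from −0.97 (Noc3l) to 0.31 (Rrp1) in Btg4tm. Ncl, the nucleolar protein nucleolin, measured 77.2 and 101 in GV, 201 and 202 in MII, 236 and 253 in Btg4wt and 107 and 113 in Btg4tm. It was called higher in MII relative to the median gene (1.18 ± 0.13 (SE, adjusted p = 1.1e-04)) and lower in Btg4tm (−1.15 ± 0.13 (SE, adjusted p = 2.0e-04)), and its MII value was 0.98 without GV replicate 1. Ddx21, a helicase of rRNA transcription, measured 6.34 and 6.21 in GV, 8.57 and 9.41 in MII, 10.2 and 11.5 in Btg4wt and 5.99 and 5.82 in Btg4tm and was not called, at 0.46 ± 0.16 (SE, adjusted p = 0.038) and −0.78 ± 0.16 (SE, adjusted p = 0.0045).

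The RNAs that were lower in MII tended to have shorter coding sequences. Their median coding length was 1425 bases, against 2091 for the 8 called higher. The shortest coding sequence of the list, that of Nop10 at 192 bases, was not called, and Nip7 at 540 bases was called higher. Across the 59 members, Spearman's rho of coding length with the log2 fold change was 0.398 in MII over GV and −0.598 in Btg4tm over Btg4wt, and across the 11221 genes tested with a coding length it was 0.310 and −0.439. The points share the same libraries and their composition, and no test was made. When each library was corrected for its trends on transcript length and GC content, Nol10 alone of the 8 kept its call, at 1.11. The others stood at 0.96 for Dkc1, 0.998 for Mphosph10, 0.96 for Nol6, 0.73 for Nip7, 0.44 for Utp20, 0.23 for Heatr1 and 0.11 for Ncl. Of the 13 called lower, Nob1 lost its call (−0.42). Other members gained calls, so that 15 in all were called lower and 4 higher in MII. In Btg4tm the number called lower went from 10 to 5 and the number called higher from 8 to 9.

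**Figure D4:**
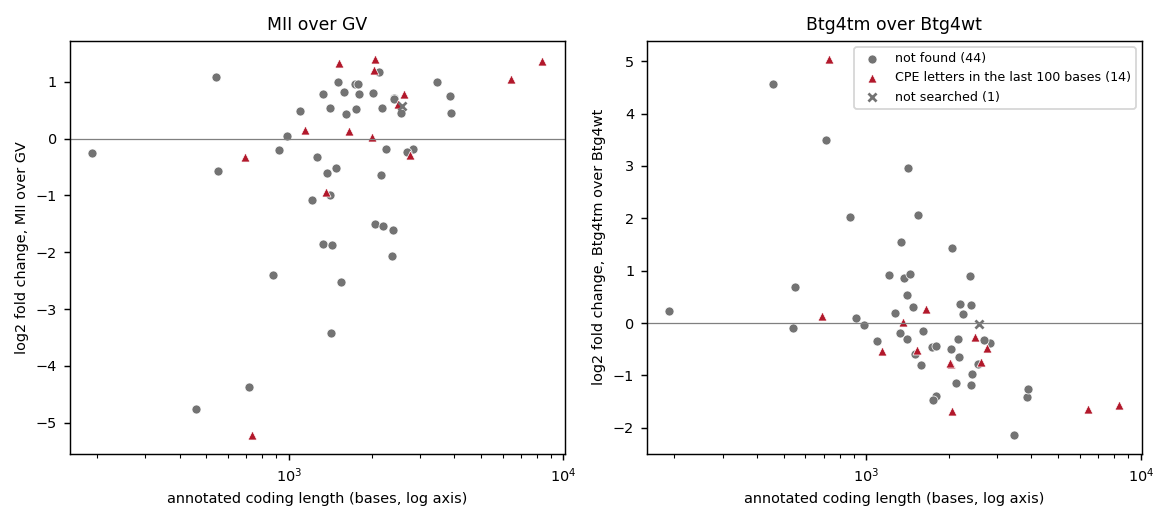
Log2 fold change of each member in MII over GV (left) and Btg4tm over Btg4wt (right) against annotated coding length in bases (log axis). Triangles hold the CPE letters in the last 100 annotated bases (14 members), circles do not (44), and the cross was not searched (1). The members that fell to the lowest values on the left are short ones, but not all short ones fell, as with Nop10 (192 bases, −0.26) and Nip7 (540 bases, 1.08). The 2 longest coding sequences, those of Utp20 and Heatr1, lie above 0 on the left and below 0 on the right. With mitochondrial scaling, all 32 members above 0 on the left moved below it.

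MII oocytes with wild-type BTG4 were set beside uninjected MII oocytes to see how these RNAs stood after injection of wild-type Btg4 cRNA. No member and no gene was called in Btg4wt over MII (0% of genes tested lower and 0% higher, limma). At an unadjusted p under 0.05 there were 5 of the 59 members, Mrto4, Nip7, Tbl3, Wdr36 and Nol11, and 1657 of the 13952 genes tested. These 5 were named after their values were seen, and their log2 fold changes ran from −0.35 (Nip7) to 0.78 (Mrto4). No alternative setting gave a call among the members. In Btg4tm over GV, 0 members were called higher (1.02% of all genes) and 1, Nop2, lower (1.02% of all genes), with a log2 fold change of −1.23 ± 0.31 (SE, adjusted p = 0.041). Both comparisons cross the control and injection tables, so injection, the BTG4 protein it overexpressed and the table set cannot be told apart. Btg4tm over GV differs in meiotic stage as well.

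The other genes of ribosome production gave the wider setting. Of 90 further ribosome biogenesis genes tested, 33 (36.7%) were called lower and 9 (10%) higher in MII, against 24.0% and 12.6% of all genes. In Btg4tm over Btg4wt, 26 (28.9%) were called higher and 6 (6.67%) lower, against 18.2% and 7.95% of all genes. Fcf1, which cuts the small subunit precursor, measured 889.6 and 708 in GV, 21.1 and 26.6 in MII, 19.7 and 18.9 in Btg4wt and 633 and 765 in Btg4tm. Znrd1, a subunit of RNA polymerase I, and Wdr18, a large subunit factor, fell alike, with −5.31 ± 0.30 (SE, adjusted p = 3.3e-06) and −4.77 ± 0.21 (SE, adjusted p = 1.0e-06) in MII. The 3 largest rises were those of Nol8, Riok1 and Tcof1, at 1.39, 1.33 and 1.28 relative to the median gene. Of 77 RNAs for cytosolic ribosomal proteins, 66 (85.7%) were called lower and 0 higher in MII, and 62 (80.5%) higher and 0 lower in Btg4tm. Their median log2 fold changes were −3.05 and 2.48. The difference between those lists and the 59 members was not tested.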

How the data were processed

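Mouse oocyte RNA with poly(A) tails was sequenced by Smart-seq2 in 8 libraries, 2 in each of 4 groups, grouped and numbered by their sample titles. According to the labels and the study's methods, the authors trimmed reads with Trim Galore 0.6.10, aligned them to GRCm38 with HISAT2 2.2.0, counted them on GENCODE vM25 exons with featureCounts 2.0.6 without strand, and deposited TPM per gene symbol. The gene lengths behind the TPM and the filter on listed genes are not given in the sources used here. The authors' own test was on counts, which were not used here, so depth and counting error are unknown.

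The members and lists were chosen with earlier results of these data known. TPM of the 15962 genes listed in all 8 tables were divided by median-of-ratios factors and taken as log2(TPM + 1). The 13952 genes with at least 1 scaled TPM in at least 2 libraries were fitted over all 8 libraries with limma 3.58.1 in R 4.3.3 (lmFit, contrasts, eBayes with trend, two-sided, Benjamini-Hochberg), and the procedure was tested on simulated data. A fold change on this scale understates the change of low genes. Values in every library were given for the 2 most and the 1 least moved members of each role in MII over GV, for each member called higher in MII or lower in Btg4tm, for the 5 most abundant, and for the 3 largest called falls and rises of the other lists. Overlaps, lengths, and 3′ ends came from GENCODE M21, an earlier release on the authors' build, in which 15584 genes matched by symbol, 157 by an older symbol and 221 had no unique match. Shared stretches were those of 50 bases found in transcripts of another gene. Alternatives in scaling were unscaled TPM, quantile normalization and scaling to the mitochondrially encoded genes, and trends on length and GC (loess span 0.3) were also removed. In the fit they were a pseudocount of 0.1, a filter of 5 TPM or none, the 4 libraries of a comparison alone, the replicate number as a block and eBayes with no trend. In the call they were an adjusted p under 0.01 and any fold change. Each library was also left out in turn.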

Additional observations from a re-analysis of the deposited data

Results flagged for a closer look

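Nop16, a factor of large subunit assembly, was listed only in the tables of injected oocytes and entered no comparison. Its deposited TPM were 0.0745 and 0.0648 in Btg4wt and 1.32 and 1.51 in Btg4tm, a mean of 1.41 in Btg4tm, with both Btg4tm libraries above both Btg4wt libraries. It stood out as a signal outside the comparisons above its level in the Btg4wt control, no test was made of it, and its levels in GV and uninjected MII oocytes were not analysed here. No group had 4 or more libraries, so no library could be tested as an outlier.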

How the results depend on the processing

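The number of members called lower in MII (13) stayed between 12 and 16 under all alternatives except mitochondrial scaling, which gave 55, and no minimum fold change, which gave 19. The number called higher in MII (8) was 5 with TPM as deposited, 16 with quantile normalization, 0 with mitochondrial scaling, 25 with no minimum fold change and 4 after the length and GC correction. The median log2 fold change of the members in MII (0.13) was −0.028 with TPM as deposited, 0.36 with quantile normalization and −1.86 with mitochondrial scaling, while that of all genes was −0.12, 0.28 and −1.74. In Btg4tm over Btg4wt, 8 members were called higher and 10 lower. These were 24 and 1 with mitochondrial scaling and 14 and 25 with no minimum fold change, and 5 were called lower after the length and GC correction. The median (−0.26) was −0.49 with quantile normalization and 0.81 with mitochondrial scaling. The median in Btg4wt over MII (0.14) was 0.55 with mitochondrial scaling. In Btg4tm over GV the single member called lower became 3 with TPM as deposited, 15 with mitochondrial scaling, 5 lower and 9 higher with no minimum fold change, and 0 with quantile normalization, a filter at 5 TPM, only the 4 libraries compared, eBayes without trend or an adjusted p under 0.01. The median there (−0.14) was −0.31 with TPM as deposited and −0.77 with mitochondrial scaling. The mitochondrial scaling differs by its construction, since the mitochondrial share of TPM differs between the groups, and the cause of the other changes was not tested.

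With mitochondrial scaling, all 32 members with a log2 fold change above 0 in MII turned to one below it, between −2.06 and −0.72. The 21 of them given with values in every library stood at −0.88 for Dkc1, −1.73 for Fbl, −1.26 for Nop56, −1.38 for Nop58, −1.03 for Heatr1, −1.58 for Wdr75, −1.13 for Utp6, −2.06 for Utp18, −1.0045 for Mphosph10, −1.46 for Bms1, −0.72 for Utp20, −1.02 for Nol6, −0.81 for Nol10, −2.03 for Krr1, −1.42 for Rrp12, −0.92 for Tsr1, −1.65 for Pes1, −1.11 for Nip7, −2.01 for Nol9, −1.02 for Ncl and −1.50 for Ddx21. No other alternative reversed a called value among the members named with values in every library.

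Leaving out 1 library at a time gave 13 to 14 members lower and 6 to 9 higher in MII, 9 to 12 lower and 8 to 11 higher in Btg4tm over Btg4wt, and 0 to 1 lower in Btg4tm over GV, where Nop2 lost its call without GV replicate 2, either Btg4wt library or Btg4tm replicate 2. Such a fit leaves 1 library in a group, which is assumed to vary like the other groups. With the replicate block, 13 members were lower and 8 higher in MII, and 10 lower and 8 higher in Btg4tm over Btg4wt, so it changed no count. Replicate deviations of the groups correlated at −0.054 to 0.056, so same-numbered libraries showed no shared shift across genes. These values cannot tell whether such libraries shared a day, a female or a batch, which the labels do not give. TPM carry no depth, and 2 libraries per group limit the precision.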
